A study of Mus musculus with 9 samples.

Results

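T cells were followed in mouse blood through 38 genes that name the cell or carry the signal of its antigen receptor, of 18194 genes measured. The members were 7 genes of the receptor complex and its coreceptors, 11 costimulatory, adhesion and other surface molecules, 12 kinases and adaptors, 3 cytokine receptors and 5 transcription factors. All 38 were measured, 18 by a single probe set (the group of probes that reads 1 transcript) and 20 by several, of which the one with the highest mean over the 9 arrays was used. C57BL/6 mice of 8 to 9 weeks formed 3 groups of 3 animals. Ctrl mice were left without injury and bled by cardiac puncture as soon as they were anesthetized. PT mice carried combined injuries of chest, femur and head (PT for polytrauma), the chest struck bluntly on either side and the leg hurt in muscle as well as bone, and were sampled 4 h later. PT + HS mice had the same injuries and time point, and from 1 h after trauma lost blood until their arterial pressure averaged 30 mmHg (tolerance 5 mmHg), stayed there for 60 min and received electrolyte solution over 30 min at 4 times the volume lost, with norepinephrine where needed. Injured mice differed from Ctrl also in analgesia, catheters and duration of anesthesia, so that trauma and handling cannot be told apart, and bleeding cannot be told apart from the fluid and norepinephrine that followed it. Levels are the deposited log2 values, on which a difference of 1 is 2-fold, and they rank arrays within a gene but not genes against each other.

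The T-cell receptor recognizes peptide through its alpha and beta chains, which have almost no cytoplasmic part. The signal leaves through the CD3 chains and CD247 (the zeta chain), is started by kinases such as ZAP70 and is spread by adaptors such as LAT and LCP2. CD4 and CD8 bind the presenting MHC molecule as coreceptors, CD28 gives the second signal, and IL7R keeps resting T cells alive. In blood, naive and memory T cells move between the circulation and lymphoid organs. Whole blood went into RNA-stabilizing tubes, so that transcripts of platelets and reticulocytes were included, and fewer T cells and less of a transcript per T cell cannot be told apart in any value below.

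The stretch of 250 bases before the transcription start is shown for the 4 signaling chains of the receptor and for Il7r, the member with the largest difference between injured mice and Ctrl. RefSeq sequences of the GRCm38.p6 build were used, and 29 of the 38 members had an entry, with 41 promoters in all. Capitals mark matches on either strand to 4 short motifs, namely AGGAAG for ETS factors, TGTGGT for RUNX, AGATAA for GATA and CTTTGA for TCF and LEF factors, none of which overlaps another in these 5 stretches.
Cd3d (chr9:44981536-44981785, strand +): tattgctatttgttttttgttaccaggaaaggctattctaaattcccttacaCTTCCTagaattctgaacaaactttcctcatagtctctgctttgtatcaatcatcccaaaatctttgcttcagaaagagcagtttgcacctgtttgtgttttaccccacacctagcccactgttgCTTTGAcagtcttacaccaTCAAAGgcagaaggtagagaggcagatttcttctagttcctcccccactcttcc
Cd3e (chr9:45009612-45009861, strand -): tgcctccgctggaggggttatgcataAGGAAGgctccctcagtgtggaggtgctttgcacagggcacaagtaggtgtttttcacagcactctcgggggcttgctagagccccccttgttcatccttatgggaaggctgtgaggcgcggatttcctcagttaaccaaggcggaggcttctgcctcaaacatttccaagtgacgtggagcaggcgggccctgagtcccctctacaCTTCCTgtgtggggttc
Cd3g (chr9:44980432-44980681, strand -): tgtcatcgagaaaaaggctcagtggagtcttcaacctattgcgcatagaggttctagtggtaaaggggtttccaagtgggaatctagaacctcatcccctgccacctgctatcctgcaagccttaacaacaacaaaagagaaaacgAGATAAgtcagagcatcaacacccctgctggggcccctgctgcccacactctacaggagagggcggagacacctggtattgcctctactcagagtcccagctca
Cd247 (chr1:165788431-165788680, strand +): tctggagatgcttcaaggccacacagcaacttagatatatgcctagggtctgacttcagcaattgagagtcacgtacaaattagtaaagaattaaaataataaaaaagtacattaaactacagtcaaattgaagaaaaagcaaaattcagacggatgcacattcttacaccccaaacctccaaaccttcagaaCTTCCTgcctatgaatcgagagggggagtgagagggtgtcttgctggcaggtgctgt
Il7r (chr15:9529877-9530126, strand -): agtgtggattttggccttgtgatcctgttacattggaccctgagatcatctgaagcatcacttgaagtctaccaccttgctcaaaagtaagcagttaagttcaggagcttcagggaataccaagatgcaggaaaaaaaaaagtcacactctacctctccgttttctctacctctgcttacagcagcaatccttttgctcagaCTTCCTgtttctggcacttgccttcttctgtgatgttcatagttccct

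ETS motifs were present in the stretches of Cd3d, Cd3e, Cd247 and Il7r, with 2 in Cd3e. Cd3d also held 2 TCF and LEF motifs, and Cd3g held only a GATA motif. Over all member promoters, 17 of 41 (41.5%) held the ETS motif against 29.5% of the 32851 promoters in the table, and 9 (22.0%) held the TCF and LEF motif against 13.8%. The RUNX motif was found in 9.76% of member promoters against 14.0% of all, and the GATA motif in 9.76% against 9.99%. These counts describe letters only, since no binding was measured.

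With all 9 arrays, no member passed the study's thresholds of an unadjusted p under 0.05 and a 1.5-fold difference (limma) in any comparison. Between PT and Ctrl these thresholds were passed upward by 1.41% and downward by 2.26% of all genes. Between PT + HS and Ctrl they were passed by 1.99% and 1.29%, and between PT + HS and PT by 0.726% and 0.396%. At an adjusted p under 0.05 (Benjamini-Hochberg), too, no member was called in any comparison, and 0, 1 (0.0055%) and 0 genes were called over the whole table in the same order. The methods' t-test on the same arrays called 3 members between PT + HS and Ctrl at the study's thresholds, Il7r and Lcp2 as higher and Cd2 as lower. It called 0 members in each of the other comparisons. Over all 18194 genes it called 542 between PT + HS and Ctrl, 293 between PT and Ctrl and 76 between PT + HS and PT. After Benjamini-Hochberg adjustment it called 0 members and 0 genes in any comparison. A limma fit to the arrays of PT + HS and Ctrl alone called 5 members, the 3 of the t-test with Trat1 higher and Cd28 lower. No share over all genes is given for that fit, so its count has no background to be read against. An unadjusted p under 0.05 in limma over all arrays, without regard to size, was reached by 2, 1 and 1 members, against 5.82%, 4.86% and 2.87% of all genes. The median difference of the members was 0.13 between PT and Ctrl, with 27 members above and 11 below 0, where 50.1% of all genes were below 0. It was 0.03 between PT + HS and Ctrl, with 21 above and 17 below (52.6% of all genes), and -0.06 between PT + HS and PT, with 14 above and 24 below (50.7%). The medians over all genes were within 0.02 of 0. A missed threshold does not show equal levels here, as the 95% intervals of the members ran from -2.49 to 3.03 between PT and Ctrl. The animals of PT and Ctrl did not overlap for 1 member that was higher in PT (Ubash3a) and 1 that was lower (Tnfrsf4), against 4.32% and 5.12% of all genes. Those of PT + HS and Ctrl did not overlap for 4 higher members (Icos, Lcp2, Trat1 and Il7r) and 2 lower (Cd2 and Cd27), against 6.55% and 6.68%. For PT + HS and PT it was 1 higher (Tnfrsf4) and 1 lower (Cd27), against 3.61% and 3.56%.

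**Figure D1:**
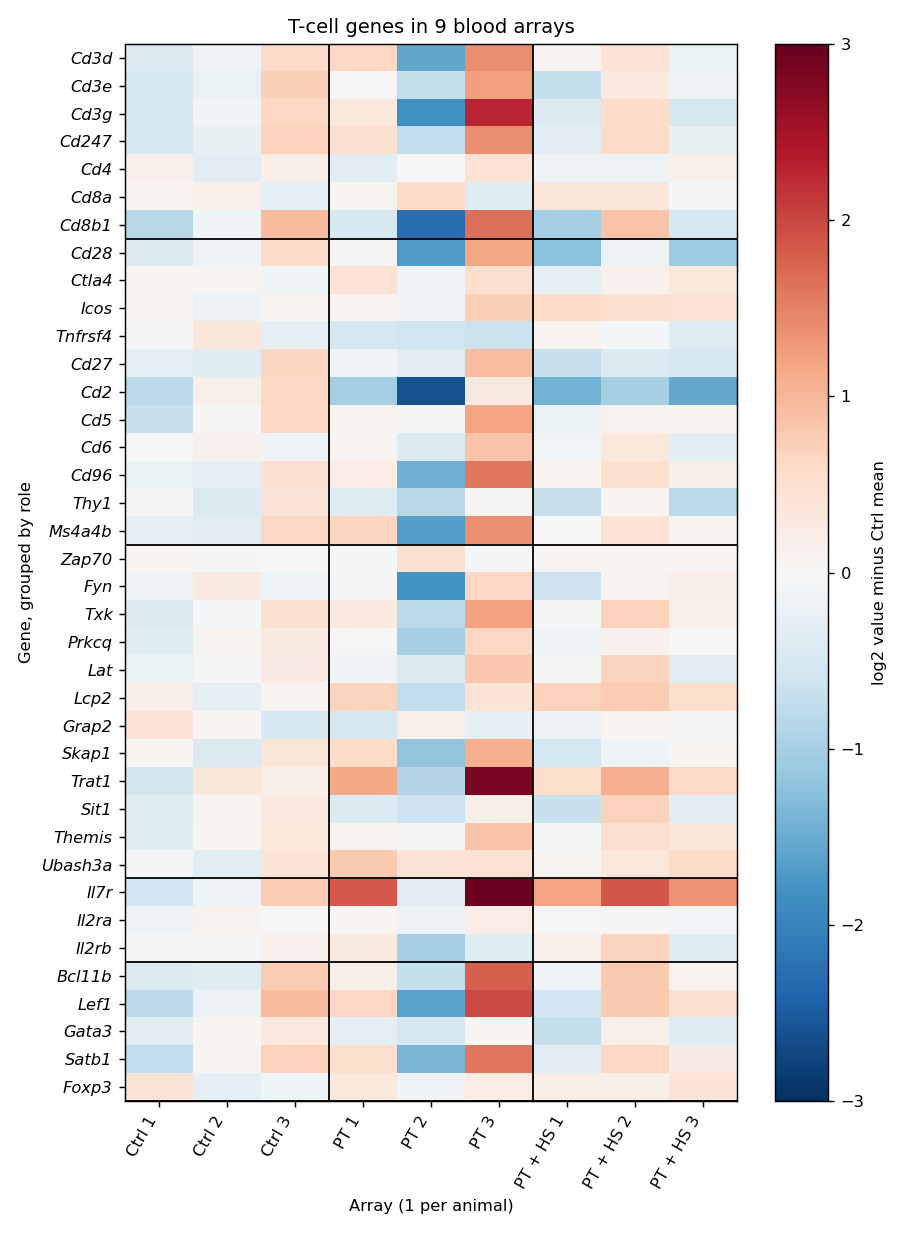
Level of each of the 38 T-cell genes (rows, grouped by role) in each of the 9 arrays (columns), as the log2 difference from the mean of the 3 Ctrl arrays, in color from -3 to 3. PT replicate 2 stands out as a column of low values in most rows and PT replicate 3 as a column of high values.

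The spread among the PT animals was the leading feature of these genes. PT replicate 2, which also stood apart over all probe sets (correlation with the other 8 arrays from 0.912 to 0.949, against at least 0.961 among those 8), was the lowest of the 9 arrays for 23 of 38 members (60.5%). The same held for 23.2% of all genes. PT replicate 3 was the highest array for 26 members (68.4%, against 14.8% of all genes). The PT animals followed the order replicate 2, 1, 3 from low to high in 29 members (76.3%, against 23.5%). Within Ctrl, PT and PT + HS the median standard deviation was 0.404, 0.714 and 0.312 for the members and 0.222, 0.306 and 0.208 for all genes. Summed over the members on the linear scale, the level ran from 4117 to 7037 in Ctrl, from 3001 to 12330 in PT and from 4939 to 7214 in PT + HS, so that the PT range enclosed both others. The 24 members not listed here as shared with NK cells gave 2304 to 4248, 1844 to 8460 and 3049 to 4642 in the same order. The 14 listed as shared gave 1813 to 2789, 1157 to 3870 and 1890 to 2573. The split rests on that listing alone and does not isolate transcripts of T cells.

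**Figure D2:**
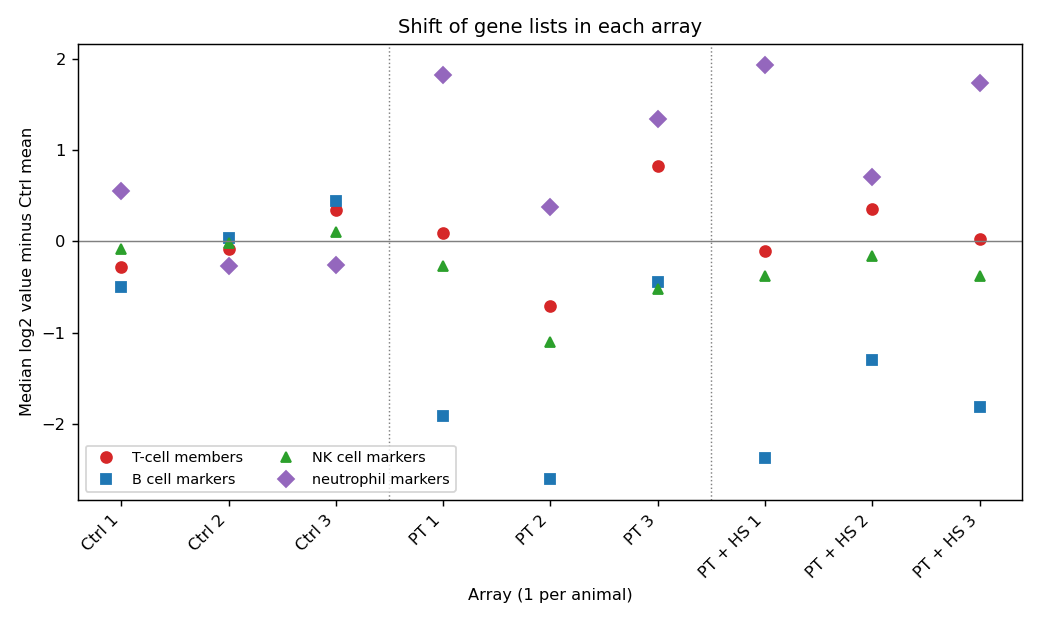
Median log2 difference from the Ctrl mean over the T-cell genes and over marker lists of other blood cells, for each of the 9 arrays. The T-cell median was 0.09, -0.71 and 0.83 in PT replicates 1, 2 and 3 and between -0.11 and 0.35 in PT + HS, while the B-cell median lay below 0 in all 6 injured animals, with PT replicate 3 (-0.45) inside the Ctrl range.

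Each of the 4 signaling chains of the receptor was spread more widely among the PT animals than within Ctrl or PT + HS. Cd3d, the delta chain, was at 8.30, 8.61 and 9.31 in Ctrl, 9.35, 7.17 and 10.13 in PT, and 8.82, 9.15 and 8.53 in PT + HS. Cd3e, the epsilon chain, was at 7.70, 8.00 and 8.93 in Ctrl, 8.22, 7.49 and 9.45 in PT, and 7.49, 8.51 and 8.09 in PT + HS. Both had their highest value in PT replicate 3, and for both the groups overlapped throughout. Cd3g, the gamma chain, was at 5.98, 6.38 and 7.12 in Ctrl, 6.81, 4.66 and 8.79 in PT, and 6.08, 7.05 and 6.01 in PT + HS. Cd247 was at 6.03, 6.30 and 7.21 in Ctrl, 7.0, 5.78 and 7.90 in PT, and 6.19, 7.08 and 6.28 in PT + HS. PT replicate 2 was thus the lowest of all 9 arrays for Cd3d, Cd3g and Cd247 and level with the lowest PT + HS animal for Cd3e. The differences of these 4 chains from Ctrl were 0.15 to 0.38 in PT and -0.18 to 0.10 in PT + HS, with standard errors of 0.49 to 0.83.

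In the probe sets used, the coreceptors did not move as a group. Cd4 was at 6.13, 5.64 and 6.17 in Ctrl, 5.67, 5.97 and 6.42 in PT, and 5.86, 5.82 and 6.14 in PT + HS. It varied little and its 3 groups overlapped. Cd8b1, the CD8 beta chain, was at 6.17, 6.85 and 7.95 in Ctrl, 6.51, 4.71 and 8.65 in PT, and 5.96, 7.85 and 6.49 in PT + HS, the spread of the CD3 chains. Cd8a, the CD8 alpha chain, was at 8.17, 8.21 and 7.80 in Ctrl, 8.14, 8.60 and 7.70 in PT, and 8.42, 8.43 and 8.01 in PT + HS, with PT replicate 2 the highest. This order came from the probe set used. Another of the gene's 5 probe sets read 5.45, 6.59 and 7.40 in Ctrl, 5.64, 4.49 and 8.06 in PT, and 5.37, 6.76 and 6.15 in PT + HS, with PT replicate 2 the lowest as for Cd8b1. Further Cd8a probe sets put PT replicate 2 at 5.47 and 4.83, also the lowest of the 9 arrays. The remaining one put it at 6.77, the highest PT animal. There all PT + HS animals were above all Ctrl animals, at a difference of 0.49, short of 1.5-fold.

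Among the surface molecules, Cd28, the main costimulatory receptor, was at 5.98, 6.32 and 6.97 in Ctrl, 6.46, 4.74 and 7.59 in PT, and 5.18, 6.28 and 5.33 in PT + HS. Cd27, a costimulatory receptor of the tumor necrosis factor receptor family that NK cells also carry, was at 3.96, 3.89 and 4.90 in Ctrl, 4.15, 3.91 and 5.18 in PT, and 3.56, 3.83 and 3.74 in PT + HS. Its 3 PT + HS animals lay below all PT and all Ctrl animals, with a difference from PT of -0.70 (95% interval -1.50 to 0.09). Cd2, an adhesion molecule of T and NK cells, was at 7.24, 8.17 and 8.65 in Ctrl, 7.03, 5.42 and 8.29 in PT, and 6.60, 7.02 and 6.47 in PT + HS. All PT + HS animals were below all Ctrl animals, at a difference of -1.32 (95% interval -2.70 to 0.06), whereas PT, at -1.11, overlapped both. Cd96, a receptor for nectin-like molecules, was at 6.12, 6.07 and 6.79 in Ctrl, 6.55, 4.88 and 7.91 in PT, and 6.39, 6.81 and 6.52 in PT + HS. Ms4a4b, a membrane protein of T and NK cells, was at 9.04, 8.96 and 9.93 in Ctrl, 9.94, 7.65 and 10.68 in PT, and 9.31, 9.75 and 9.36 in PT + HS. Both followed the order of the PT animals seen in the CD3 chains. Thy1, a glycoprotein that marks mouse T cells, was at 6.23, 5.78 and 6.58 in Ctrl, 5.81, 5.37 and 6.23 in PT, and 5.5, 6.25 and 5.39 in PT + HS, with overlapping groups. Tnfrsf4 (OX40) differed by -0.58 between PT and Ctrl (95% interval -1.04 to -0.13, adjusted p = 0.741 in limma), just short of 1.5-fold, and by 0.46 between PT + HS and PT. Icos, a relative of CD28, differed by 0.49 between PT + HS and Ctrl (95% interval 0.01 to 0.98), also short of 1.5-fold. Ctla4, Cd5 and Cd6 differed by 0.18 to 0.40 between PT and Ctrl and by -0.03 to 0.05 between PT + HS and Ctrl.

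**Figure D3:**
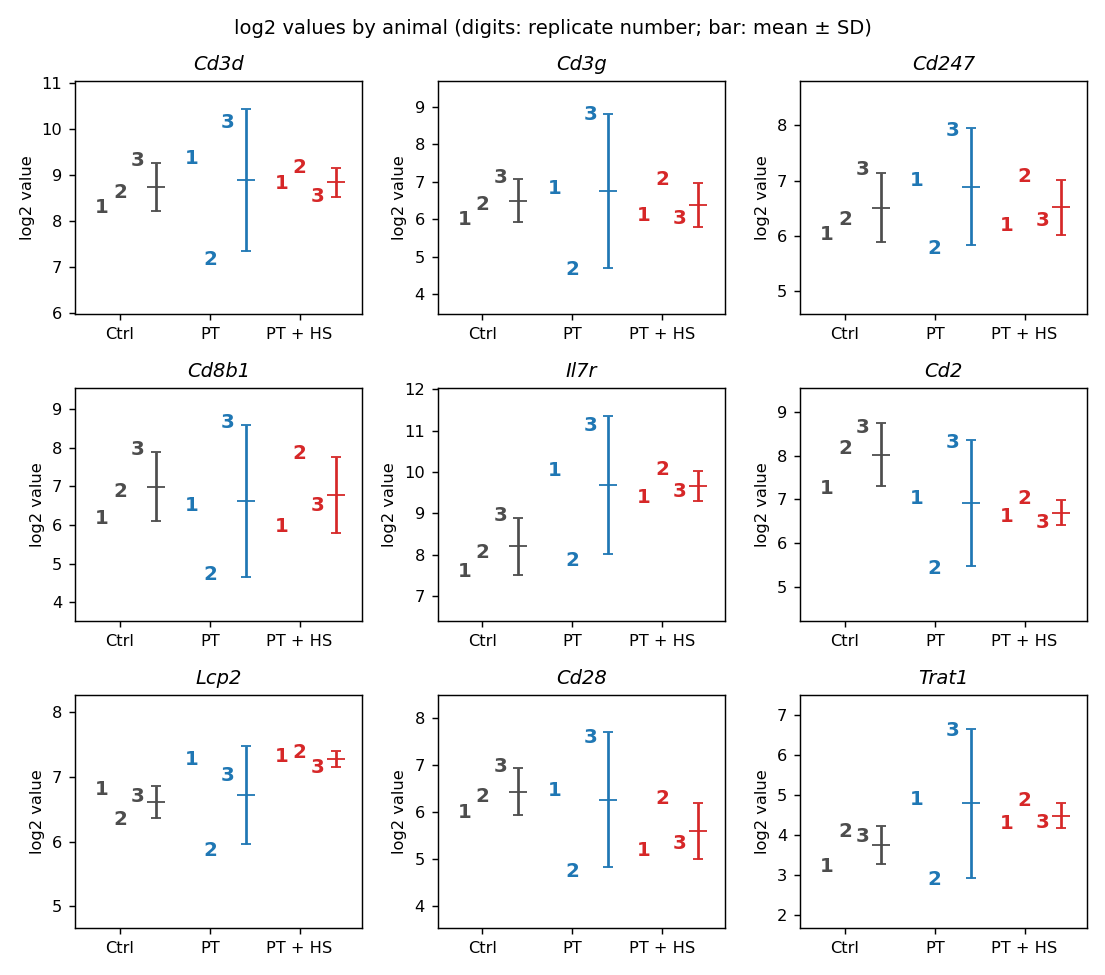
Deposited log2 level in each of the 9 animals for Cd3d, Cd3g, Cd247, Cd8b1, Il7r, Cd2, Lcp2, Cd28 and Trat1, by group. Digits are the replicate numbers and bars the group mean ± SD. In PT the 3 values are spread more widely than in Ctrl and PT + HS in all 9 genes, while for Il7r all PT + HS values lie above all Ctrl values.

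Of the intracellular members, the adaptor genes Trat1, Skap1, Lcp2 and the phosphatase-like regulator Ubash3a are given by animal. Trat1, which stabilizes the receptor complex, was at 3.21, 4.10 and 3.96 in Ctrl, 4.90, 2.89 and 6.60 in PT, and 4.29, 4.85 and 4.33 in PT + HS. In the probe set used its PT + HS animals were all above Ctrl, by 0.74, and PT held both its lowest and its highest value. Skap1, which links the receptor to integrins, was at 5.73, 5.24 and 6.04 in Ctrl, 6.22, 4.48 and 6.73 in PT, and 5.14, 5.55 and 5.72 in PT + HS. Ubash3a, a negative regulator of the receptor signal, was at 3.42, 3.15 and 3.88 in Ctrl, 4.28, 3.89 and 3.92 in PT, and 3.57, 3.81 and 4.03 in PT + HS. In the probe set used, all PT animals were above all Ctrl animals, narrowly, with a difference of 0.55 (95% interval 0.04 to 1.05, adjusted p = 0.819 in limma). The second Ubash3a probe set differed by 0.27 between PT and Ctrl, with overlapping animals. Lcp2 (SLP-76), the adaptor downstream of ZAP70 that platelets and myeloid cells also use, was at 6.80, 6.34 and 6.71 in Ctrl, 7.28, 5.87 and 7.03 in PT, and 7.32, 7.38 and 7.14 in PT + HS. It did not overlap between PT + HS and Ctrl, at a difference of 0.66 (95% interval -0.07 to 1.39). Zap70, in the probe set used, lay between 8.09 and 8.21 on all arrays but PT replicate 2, where it reached 8.61. Another of the gene's 3 probe sets read 5.20, 4.72 and 5.09 in PT, with PT replicate 2 the lowest PT animal. The remaining one read 6.98, 7.14 and 7.06 in PT, below the 7.34 of Ctrl replicate 1. In the probe sets used, the kinases Fyn, Txk and Prkcq and the adaptors Lat, Grap2, Sit1 and Themis differed by -0.41 to 0.31 between PT and Ctrl. Between PT + HS and Ctrl they differed by -0.12 to 0.27. The second probe set of Fyn differed by -0.97 in PT and -0.61 in PT + HS from Ctrl. That of Grap2 differed by -0.51 and -0.34, and neither passed the thresholds.

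Il7r, the alpha chain of the interleukin-7 receptor, had the largest difference from Ctrl among the members in both injured groups. It was at 7.59, 8.05 and 8.95 in Ctrl, 10.04, 7.85 and 11.14 in PT, and 9.37, 10.06 and 9.54 in PT + HS. Each PT + HS animal and PT replicates 1 and 3 were above every Ctrl animal, and PT replicate 2 lay within the Ctrl range. The difference was 1.48 in PT (95% interval -0.07 to 3.03, adjusted p = 0.881 in limma) and 1.46 in PT + HS (95% interval -0.09 to 3.01, adjusted p = 0.999). Il2ra and Il2rb, the alpha and beta chains of the interleukin-2 receptor, differed by 0.03 and -0.36 in PT and by -0.02 and 0.14 in PT + HS.

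Lef1, a transcription factor of naive T cells, was at 6.97, 7.58 and 8.69 in Ctrl, 8.36, 6.15 and 9.72 in PT, and 7.18, 8.52 and 8.20 in PT + HS. Satb1, a chromatin organizer of thymocytes and T cells, was at 6.90, 7.71 and 8.33 in Ctrl, 8.19, 6.27 and 9.24 in PT, and 7.30, 8.27 and 7.90 in PT + HS. Both had the PT order of the CD3 chains. Foxp3, the factor of regulatory T cells, was at 3.30, 2.62 and 2.78 in Ctrl, 3.21, 2.79 and 3.11 in PT, and 3.08, 3.08 and 3.28 in PT + HS, and the groups overlapped. Its values were low, as only 14.3% of all genes had a mean at or below that of Foxp3. Bcl11b and Gata3, which set and hold T-cell identity, differed by 0.43 and -0.24 in PT and by 0.26 and -0.32 in PT + HS.

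Leaving out PT replicate 2, which leaves PT with 2 animals, changed the account. Between PT and Ctrl 11 members then passed the thresholds upward and 0 downward (4.22% and 1.92% of all genes), and the median difference was 0.48, with 9 members below 0 (51.2% of all genes). These were the receptor chains Cd3d (1.01), Cd3g (1.30) and Cd247 (0.94), the surface molecules Cd96 (0.91) and Ms4a4b (1.0), the signaling genes Skap1 (0.81), Trat1 (2.0) and Ubash3a (0.62), Il7r (2.39), and the transcription factors Lef1 (1.29) and Satb1 (1.07). Il7r was nearest to the stricter call, with an SE of 0.42 and an adjusted p = 0.0622 in limma. Between PT + HS and PT 8 members passed downward and 0 upward (3.31% and 1.39% of all genes), and the median was -0.46, with 30 members below 0 (50.4% of all genes). They were Cd3d (-0.91), Cd3g (-1.41), Cd247 (-0.94), Cd28 (-1.43), Cd27 (-0.95), Ms4a4b (-0.84), Skap1 (-1.0) and Trat1 (-1.26). Both comparisons use the same 2 PT animals, so that their opposite signs are not separate observations. Between PT + HS and Ctrl the differences stayed as they were, since no array of these groups was left out, but the smaller residual spread brought Il7r and Lcp2 past the thresholds upward and Cd2 downward (2.52% and 2.04% of all genes). No member reached an adjusted p under 0.05 in any of the 3 comparisons, where 47 (0.258%), 53 (0.291%) and 0 of all genes did.

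Leaving out PT replicate 3 in place of replicate 2 turned the median between PT and Ctrl to -0.26 (9 members above and 29 below 0), with 1 member higher (Ubash3a) and 1 lower (Cd2). The median between PT + HS and PT turned to 0.38 (31 above and 7 below 0), with 0 members called. The direction of the T-cell genes in PT therefore depended on which of the 3 PT animals was left out, and the medians with all arrays lay between these values. No share over all genes is given for the fit without PT replicate 3, so its counts have no background to be read against.

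**Figure D4:**
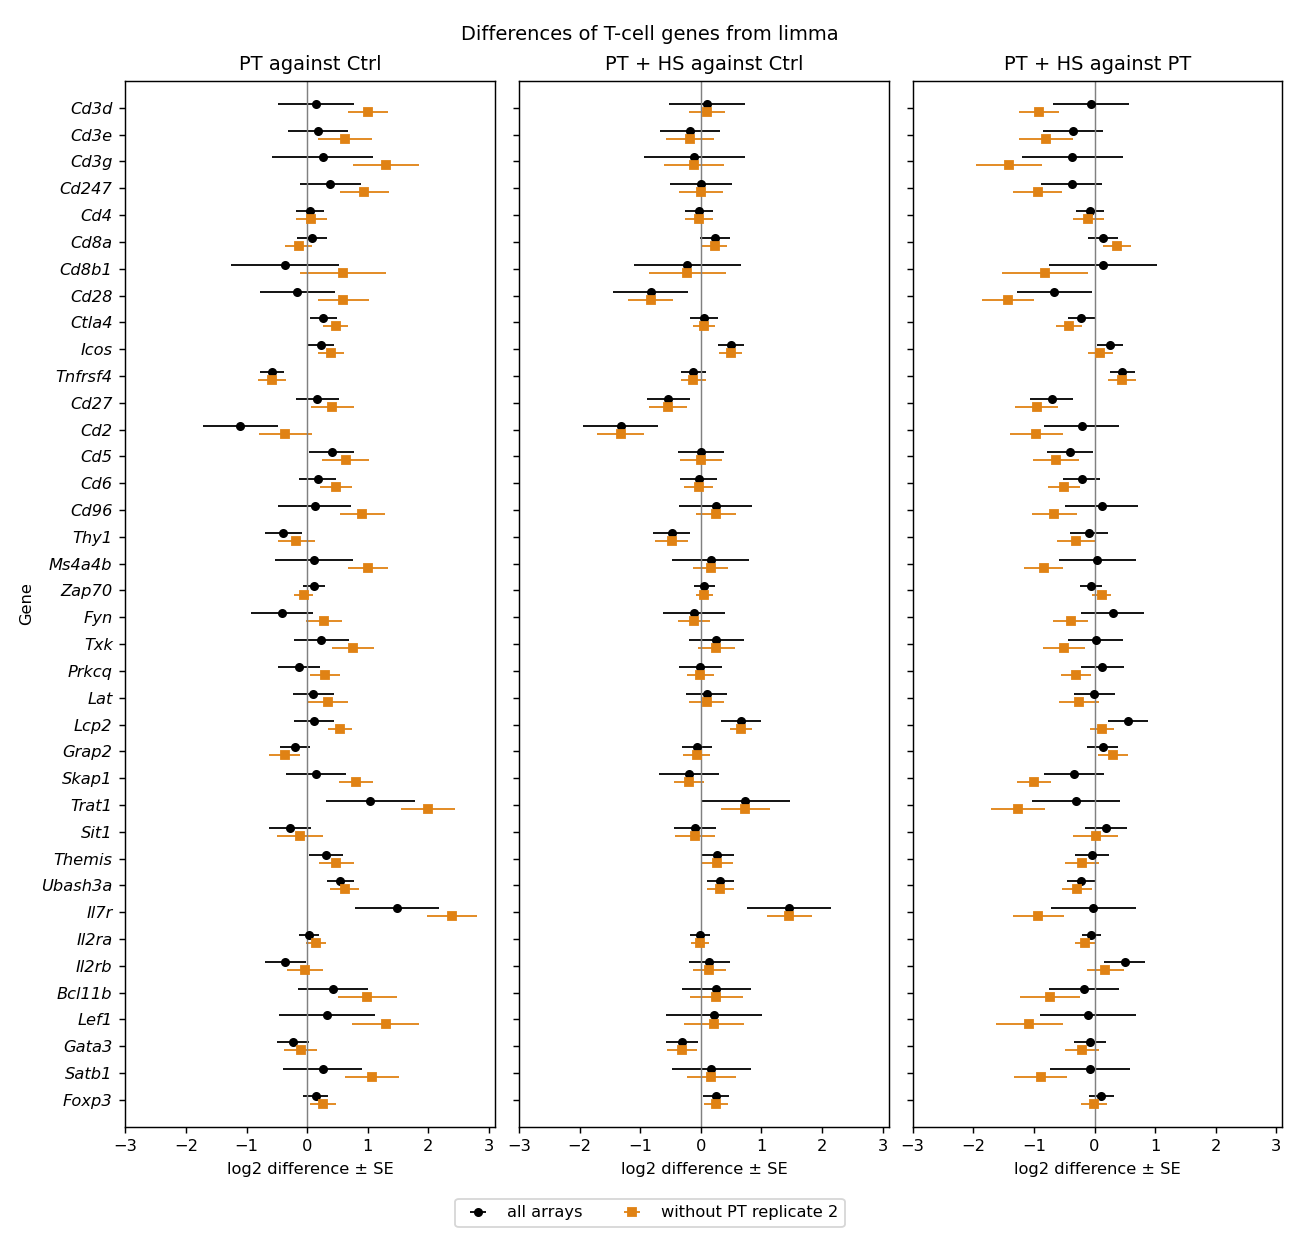
Log2 difference of each T-cell gene in the 3 comparisons, with all arrays (circles) and without PT replicate 2 (squares), with bars of 1 standard error. Without PT replicate 2 most points lie to the right of 0 between PT and Ctrl (median 0.48) and to the left between PT + HS and PT (median -0.46), and between PT + HS and Ctrl the points do not move.

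Several members were read differently by their other probe sets. When all 34958 probe sets with 1 symbol were fitted, 73 belonged to members, and of these 1 passed the thresholds upward and 1 downward between PT and Ctrl (1.16% and 1.92% of all probe sets), 0 and 1 between PT + HS and Ctrl (1.58% and 1.24%), and 1 and 0 between PT + HS and PT (0.632% and 0.38%). A second Cd247 probe set was at 5.86, 5.88 and 5.98 in Ctrl, 5.28, 5.92 and 5.21 in PT, and 4.69, 5.04 and 5.10 in PT + HS. All PT + HS animals were below all others there, at -0.97 from Ctrl (SE 0.21, adjusted p = 0.427 in limma), whereas the probe set used gave 0.00. A second Lcp2 probe set was at 5.92, 5.51 and 5.52 in Ctrl, 4.91, 4.91 and 4.90 in PT, and 5.48, 5.80 and 5.79 in PT + HS. It differed by -0.75 between PT and Ctrl (SE 0.16, adjusted p = 0.470 in limma) and by 0.79 between PT + HS and PT, both past the thresholds, while the probe set used gave 0.11 and 0.55. Between PT + HS and Ctrl this second Lcp2 probe set differed by 0.04, with overlapping animals, whereas the probe set used gave 0.66 without overlap. The second Il7r probe set gave 1.5 between PT and Ctrl, past the thresholds, and 1.22 between PT + HS and Ctrl, the same direction as the first. The second Trat1 probe set was at 4.71, 3.90 and 4.18 in Ctrl, 4.64, 4.14 and 4.74 in PT, and 3.93, 3.97 and 4.03 in PT + HS. It differed by -0.29 between PT + HS and Ctrl, with overlapping animals, whereas the probe set used gave 0.74. The second Cd28 probe set differed by -0.07 between PT + HS and Ctrl and by -0.12 between PT + HS and PT, whereas the probe set used gave -0.83 and -0.67. The parts of the transcripts that these probe sets read were not analysed here.

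Other genes of the pathway were taken as lists. With all arrays, 0 of 37 measured further genes of receptor signaling were higher and 4 lower past the thresholds between PT and Ctrl, the phosphatase Ptpn6 (-0.87), the transcription factor Nfatc1 (-0.59), the calcineurin subunit Ppp3ca (-1.02) and Csk (-0.62), which holds the receptor's first kinase in check. Without PT replicate 2 the same list had 6 higher, among them the phosphatase Ptpn22 (2.04) and the ubiquitin ligase Cblb (1.16), and 2 lower, Ptpn6 and Nfatc1. Its median turned from -0.04 to 0.16. Between PT + HS and Ctrl 1 was higher, the Csk-binding adaptor Pag1 (1.23), and 2 were lower, Nfatc1 (-0.59) and the CD45-associated Ptprcap (-0.61), with 2 and 4 without PT replicate 2.

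Of 18 further costimulatory and inhibitory receptors, 2 were lower in PT than in Ctrl with and without PT replicate 2, Slamf1 (-0.86 with all arrays) and Klrg1 (-0.61). Between PT + HS and Ctrl 0 were called with all arrays and 1 without PT replicate 2, the early activation marker Cd69 (-1.46). Of 23 further transcription factors, 3 were lower in PT with all arrays, namely Tbx21 (-1.15), the T-bet gene of type 1 T cells and NK cells, Ikzf3 (-1.40), which B cells also express, and Id3 (-0.73). Without PT replicate 2 these 3 were again lower, and Id2 (1.16), Maf (0.89) and Batf (0.60) were higher, and the median turned from -0.25 to 0.08. In PT + HS Tbx21 (-0.88) and Id3 (-0.71) were lower than in Ctrl and Maf (0.89) and Id2 (1.09) higher, to which Bach2 (-1.07) and Foxp1 (-1.01) were added as lower without PT replicate 2.

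Of 28 trafficking and survival genes, 2 were higher in PT than in Ctrl with all arrays, the interleukin-6 receptor chains Il6ra (0.87) and Il6st (1.08), and 3 were lower, the integrin chain Itgb7 (-0.64), the chemokine receptor Ccr6 (-0.89) and the chemokine Ccl5 (-0.73). Without PT replicate 2 there were 4 higher, Il6st (1.58, adjusted p = 0.0371 in limma), Il6ra, Ms4a6b and the survival gene Bcl2 (0.95), and 0 lower, and the median turned from -0.29 to 0.15. Between PT + HS and Ctrl, which shares the Ctrl animals, Il6st (1.02) was higher and Itgb7 (-0.63) lower, with 4 more genes lower without PT replicate 2, the lymph node homing receptor Ccr7 (-1.10) and Gimap6, Gimap7 and Gimap8, GTPases of lymphocytes.

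With all arrays 0 genes of these 4 lists passed between PT + HS and PT. Without PT replicate 2, 5 signaling genes (Ptpn22, Sos1, Nfatc3, Ppp3cb and Sh2d1a), 1 costimulatory gene (Cd69), 3 transcription factors (Ets1, Zeb1 and Tcf12) and 3 trafficking genes (Ccr7, Gimap8 and S1pr1, the receptor for exit from lymphoid organs) were lower and 0 higher. The genes called only without PT replicate 2 were named after their values were seen. Part of the calls of these lists in PT thus depended on a single array. Ptpn6, Nfatc1, Slamf1, Klrg1, Tbx21, Ikzf3, Id3, Il6st and Il6ra were called between PT and Ctrl with and without PT replicate 2. With all arrays no gene of the 4 lists reached an adjusted p under 0.05.

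Markers of other blood cells moved with the injury, and their part in the T-cell values was not tested. Of 11 measured B-cell markers, 10 were lower past the thresholds in PT (8 without PT replicate 2) and 10 in PT + HS than in Ctrl, and 0 were called between PT + HS and PT. Their summed level was 2757 to 5345 in Ctrl, 560 to 2716 in PT and 977 to 1461 in PT + HS. On the median of the log2 differences PT replicate 3 (-0.45) lay within the Ctrl range of -0.50 to 0.44, and the other 5 injured animals lay below it. Of 12 neutrophil markers, 6 were higher in PT (8 without PT replicate 2) and 8 in PT + HS. Of 11 NK-cell markers, 1 was higher and 6 lower in PT, which became 2 and 3 without PT replicate 2. In PT + HS 1 was higher and 2 lower than in Ctrl, and 1, Gzma, was higher than in PT with all arrays but not without PT replicate 2. The NK-cell markers summed to 1716 to 1770 in Ctrl, 533 to 1298 in PT and 1122 to 1578 in PT + HS. Of 11 monocyte markers, 3 passed upward and 4 downward between PT and Ctrl, 3 and 1 between PT + HS and Ctrl, and the comparison of PT + HS with PT gave 3 higher (6 without PT replicate 2).

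The PT animals at the extremes of the T-cell level also differed in these markers. PT replicate 2 was the lowest PT animal for the B-cell, NK-cell and neutrophil medians (-2.60, -1.10 and 0.37) and the highest for that of immature red cells (0.64). PT replicate 3 had the highest B-cell median of the injured animals (-0.45) and a monocyte median of -1.15, where the other 8 arrays lay between -0.12 and 0.18. Among the Ctrl animals the T-cell median ran from -0.28 to 0.35, and the animals with its lowest and highest value also had the lowest and highest B-cell median.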

How the data were processed

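Blood RNA of 9 mice was hybridized, 1 array per animal. The authors deposited log2 values made by robust multiarray average, which includes quantile normalization, with Expression Console and BRB-ArrayTools (versions not given in the sources used here). Although the methods name a whole-transcript mouse array, the probe sets are named as on another Affymetrix type. Scan dates were not analysed here. Of 45101 probe sets, 34958 with exactly 1 symbol were kept, and per gene that with the highest mean over the 9 arrays, without a filter on low values. In all, 32 members had a mean above the median gene mean of 4.29, and Foxp3, Gata3, Il2ra, Ubash3a, Cd27 and Sit1 had a mean below it. All 18194 genes were fitted in R 4.3.3 with limma 3.58.1, with 1 mean per group, two-sided moderated tests and p-values adjusted by Benjamini-Hochberg within a comparison. The fit was tested on simulated data. The number of arrays limits the precision. Members and lists were chosen with earlier results of these data known, so no test over the list was made. Values per animal are given for members past the thresholds with all arrays or without PT replicate 2, and for Cd3d, Cd3e, Cd3g, Cd247, Cd4, Cd8a, Cd8b1, Foxp3, Thy1 and Il7r. For other lists the plan was to name up to 3 genes per comparison, those with the smallest p among the genes called. The text departs from it, as in some comparisons all called genes are named and in others only some. Alternatives are given in the closing section.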

Additional observations from a re-analysis of the deposited data

How the results depend on the processing

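Leaving out single arrays took the median difference of the members from -0.26 to 0.48 between PT and Ctrl, from -0.06 to 0.20 between PT + HS and Ctrl, and from -0.46 to 0.38 between PT + HS and PT, so that its sign turned in all 3. Under the other alternatives it kept its sign, from 0.12 to 0.17, 0.0017 to 0.05 and -0.10 to -0.05. The count of members past the thresholds, 0 with the fit as reported, ran from 0 to 11, 0 to 3 and 0 to 8 when arrays were left out in turn, with the highest counts without PT replicate 2. Without it Ms4a4b turned from 0.05 to -0.84 between PT + HS and PT, and without the other arrays in turn its highest value was 0.68. Calls were also made without Ctrl replicate 1 or 3, PT replicate 1 or 3, or PT + HS replicate 2 or 3, with at most 3 in a comparison. In the order PT against Ctrl, PT + HS against Ctrl and PT + HS against PT, array weights gave 5, 3 and 2 members, with PT replicate 1 making up 86.9% of the PT mean. The variance trend gave 1, 2 and 0, the repeated quantile normalization 1, 3 and 0, and equal array medians 1, 0 and 0. A fit to the arrays of the 2 groups compared gave 5 between PT + HS and Ctrl, the methods' t-test gave 3 there, and averaging the probe sets of each gene gave 1 between PT + HS and PT. A 2-fold threshold and the genes above the median mean gave 0 in all 3. With the replicate block the counts were 1, 2 and 1. Apart from the t-test and the fit without PT replicate 2, no counts over all genes are given for these settings or left-out arrays. Their member counts therefore have no background to be read against. Not all same-numbered animals deviated together (correlations from -0.12 to 0.48). With 3 animals per group these values cannot settle whether the numbers pair animals, and the fit as reported did not pair them. Il7r was among the calls between PT + HS and Ctrl in all 6 of these settings, other than left-out arrays, that called any member there. The cause was not tested.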
